A study of Mus musculus with 4 samples.

Results

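Cyclins and the cyclin-dependent kinases (CDKs) they activate were followed in mouse blastocysts by their mRNA and by the ribosome-protected fragments (RPF) of that mRNA. The members were picked out by gene symbol, and the set held 10 genes of the 20714 symbols listed in both assays. It comprised 7 cyclins (Ccna2, Ccnb1, Ccnb2, Ccnd1, Ccnd2, Ccnd3 and Ccne1) and 3 kinases (Cdk1, Cdk2 and Cdk4). All 10 were listed in every file.

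A CDK is inactive as a free protein and gains activity when a cyclin binds it. D-type cyclins pair with Cdk4 and Cdk6 to start phosphorylation of the retinoblastoma protein in G1, and cyclin E with Cdk2 carries the cell into S phase. Cyclin A serves S phase and G2 with Cdk2 and Cdk1, and the B-type cyclins with Cdk1 drive mitosis. Cyclins are made and destroyed each cycle, whereas the kinases are more stable. Pluripotent cells are known for a short G1 phase.

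The data were 2 RNA-seq and 2 Ribo-seq libraries of wild-type blastocysts, and no treatments were compared. Embryos came from C57BL/6J females of 4 weeks mated with PWK/PhJ males, were taken at the 8-cell stage, and were grown in KSOM medium to blastocysts. Per the study's methods, ovulation was induced in the females by injected gonadotropins (PMSG and hCG). The study cautions that superovulation and culture may influence embryo quality. The strain label of all 4 libraries gave C57BL/6N x PWK, so the labels name the maternal substrain in more than 1 way. RNA-seq read polyadenylated RNA by Smart-seq2, and Ribo-seq sequenced the RNA that ribosomes held against RNase I after lysis in cycloheximide. Values were FPKM, fragments scaled to gene length and to the mapped fragments of the library, over transcripts for mRNA and over coding sequences for RPF. Whether the replicates came from separate pools of embryos is not given in the sources used here, so p-values measure only the spread between these libraries, which may be technical.

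The low FPKM implied 5477600 and 5182600 fragments in the RNA-seq libraries and 529225 and 479675 in the Ribo-seq libraries. All 6 trophectoderm markers and all 6 inner cell mass markers were above 0 in all 4 libraries. All 6 cumulus or granulosa markers were at 0 in all 4, and 4 of 6 oocyte or polar body markers and 2 of 4 blood markers were too. Summed oocyte markers ranged from 0 to 1.92 FPKM over the 4 libraries. Summed mRNA of the inner cell mass markers was 195 and 114 FPKM in replicates 1 and 2, and that of the trophectoderm markers was 3020 and 2764 FPKM. Pou5f1 (70.1 and 28.6 FPKM) and Nanog (69.8 and 28.1 FPKM) had the widest replicate gaps in FPKM among the inner cell mass markers, whereas Sall4 was at 42.8 and 46.8 FPKM. In a bulk sample, fewer cells of a type and less RNA per cell cannot be told apart.

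The start codon context is shown for the 8 members whose RPF could be compared with their mRNA, since it is the sequence at which the scanning ribosome begins. Each line runs from base -9 to base 4, counting the A of the start codon as base 1, and was read from GENCODE vM1 transcripts on NCBIM37 (mm9). Capitals mark base -3, the start codon and base 4.
Ccna2: ggagccGcgATGC
Ccnb1: ggaggaGccATGG
Ccnb2: gcggccCtcATGG
Ccnd3: catcgcAggATGG
Ccne1: tcctgaGccATGC
Cdk1: tgagtaActATGG
Cdk2: tagcgcTccATGG
Cdk4: gcttcgAgaATGG

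A purine at base -3, favoured by the scanning ribosome, stood in 8 of the 10 members, against 84.0% of 19486 genes. A G at base 4 stood in 8 members, against 49.4% of genes, and 6 members had both, against 41.3%. Ccnb2 and Cdk2 lacked the purine, and Ccna2 and Ccne1 lacked the G.

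On mm9 the cyclin genes lay at chr3:36463788-36471072 (Ccna2), chr13:101548605-101556525 (Ccnb1), chr9:70255496-70269361 (Ccnb2), chr17:47642000-47736632 (Ccnd3) and chr7:38883003-38892553 (Ccne1). The kinase genes Cdk1 (chr10:68799383-68815686), Cdk4 (chr10:126500590-126504976) and Cdk2 (chr10:128134995-128142107) were all on chromosome 10. The start codon was in exon 1 for Ccna2, Ccnb1, Ccnb2 and Cdk2, in exon 2 for Ccne1, Cdk1 and Cdk4, and in exon 3 for Ccnd3.

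Among the D-type cyclins, which link growth signals to the cell cycle, Ccnd3 supplied nearly all of the message and of the footprints. Ccnd3 mRNA was 52.5 and 60.1 FPKM, and its RPF was 66.4 and 45.7 FPKM. Ccnd1 mRNA was 0.490 and 0.594 FPKM, and its RPF was 0 and 3.01 FPKM, the latter equal to about 1 footprint. Ccnd2 mRNA was 0.133 and 0 FPKM, and no footprint was found in either Ribo-seq library, which allows up to 8.46 and 9.34 FPKM at 3 footprints. Ccnd3 made up 98.8% and 99.0% of the D-type mRNA sum and 100% and 93.8% of the RPF sum, so the order of the 3 D-type cyclins was led by Ccnd3 in every library. Cdk6, the other kinase of the D-type cyclins, was at 0.327 and 0.293 FPKM in mRNA and at 0 in both Ribo-seq libraries.

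Ccne1, the E-type cyclin of the set, was below every other member except Ccnd1 and Ccnd2 in both assays. Its mRNA was 9.97 and 17.2 FPKM. Its RPF was 3.65 and 12.1 FPKM, equal to about 2 and 6 footprints, with exact Poisson 95% intervals of 0.446 to 13.3 and 4.47 to 26.5 FPKM. The intervals overlap each other, and they cover counting error only.

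The A- and B-type cyclins, which serve S phase to mitosis, had more RPF than Ccnd3 in both Ribo-seq libraries. Ccna2 mRNA was 43.0 and 42.0 FPKM and its RPF was 149 and 125 FPKM. Ccnb1 mRNA was 128 and 231 FPKM and its RPF was 333 and 431 FPKM. Both Ccnb1 replicates were above those of every other member in each assay. Ccnb2 mRNA, at 99.0 and 94.3 FPKM, was close between replicates, and its RPF was 88.4 and 68.4 FPKM. The exact Poisson 95% intervals of Ccnb2 RPF were 65.5 to 118 and 47.5 to 96.9 FPKM. They overlap those of Ccnd3 RPF in the same libraries, 42.8 to 99.4 and 25.8 to 76.0 FPKM. Of the cyclin FPKM sum, Ccnb1 held 38.4% and 51.9% in mRNA and 52.0% and 62.9% in RPF, whereas Ccnb2 held 29.7% and 21.2% in mRNA and 13.8% and 9.99% in RPF.

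Ccnb1 values carry a limit of their own. Of its 28-base coding windows, 90.2% occurred at more than 1 place in the genome, with a median of 4 places. The 6 other loci included the annotated pseudogenes Gm5593 (chr7:49361264-49362555), which shared 80.6% of the windows, and Gm12856 (chr4:118614681-118615957), which shared 64.1%. In Ccnd3, 29.3% of windows occurred at more than 1 place, and an annotated pseudogene at chr4:138901215-138902083 held 38.4% of its windows, exon junctions included. In the other 8 members this was 3.95% or less. The levels of Ccnb1 and Ccnd3 are therefore uncertain where the mapping could split reads between copies. So are the differences of their RPF from their mRNA given below. Only windows of 28 bases were checked, so whether copies affect the assays alike was not tested.

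The kinases differed in their order between the assays. Cdk4, the G1 kinase, was the most abundant kinase message at 103 and 103 FPKM, and its RPF was 91.8 and 102 FPKM. Cdk2, the kinase of cyclins E and A, had mRNA of 63.3 and 52.1 FPKM and RPF of 115 and 154 FPKM. Cdk1, the mitotic kinase, had the lowest kinase mRNA at 25.2 and 44.8 FPKM, and RPF of 219 and 116 FPKM. The Cdk1 RPF values equal about 81 and 39 footprints, with intervals of 175 to 274 and 83.3 to 160 FPKM that do not overlap. Relative to the median gene, 36.1% of genes were at least as far apart as Cdk1 between the Ribo-seq replicates.

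**Figure D1:**
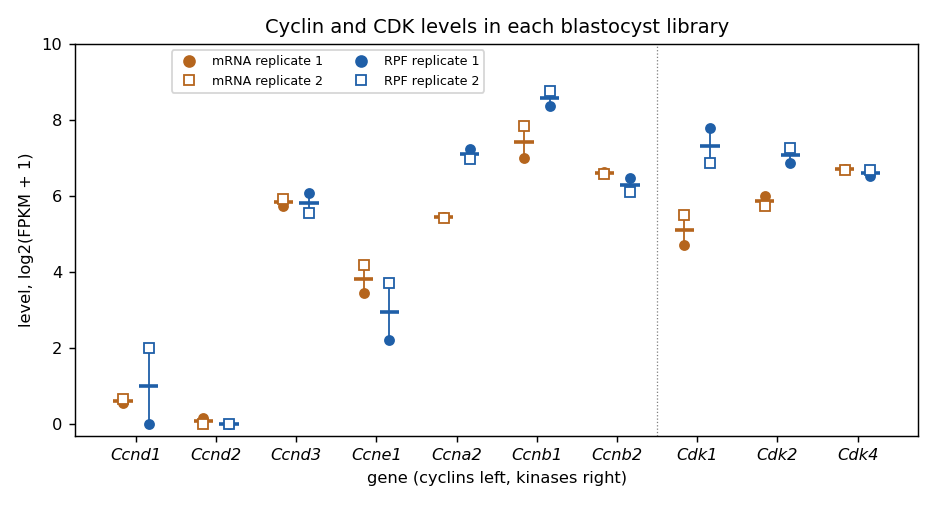
Level, as log2(FPKM + 1), of the 10 members in each of the 4 libraries, with a short bar at the mean and a line joining the 2 replicates of an assay. Ccnb1 is highest in each assay, and Ccnd1 and Ccnd2 lie lowest.

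In the order of mean mRNA, Ccnb1 was followed by Cdk4, Ccnb2, Cdk2, Ccnd3, Ccna2, Cdk1, Ccne1, Ccnd1 and Ccnd2. Replicates of neighbours overlapped for Cdk2 with Ccnd3 and for Ccna2 with Cdk1. In the order of mean RPF, Ccnb1 was followed by Cdk1, Ccna2, Cdk2, Cdk4, Ccnb2, Ccnd3, Ccne1, Ccnd1 and Ccnd2. There, replicates overlapped for Cdk1 with Ccna2, for Ccna2 with Cdk2 and for Ccnd1 with Ccnd2. Between the orders of means, Cdk1 stood 7th in mRNA and 2nd in RPF, and Ccnb2 stood 3rd in mRNA and 6th in RPF. In Ribo-seq replicate 2, Cdk1 (116 FPKM) was below Ccna2 (125 FPKM) and Cdk2 (154 FPKM), so its RPF rank rests on replicate 1.

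Cdk4 held 53.9% and 51.5% of the kinase mRNA sum but 21.5% and 27.4% of the RPF sum. Cdk1 held 13.1% and 22.4% of the mRNA sum and 51.4% and 31.3% of the RPF sum. The shares of Cdk4 and of Cdk1 did not overlap between assays, which rests on 2 libraries an assay and was not tested. How often shares of other genes fail to overlap was not tested either, and the shares within a library depend on one another. Cdk2 held 33.0% and 26.1% of the mRNA sum and 27.1% and 41.4% of the RPF sum, which overlap.

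**Figure D2:**
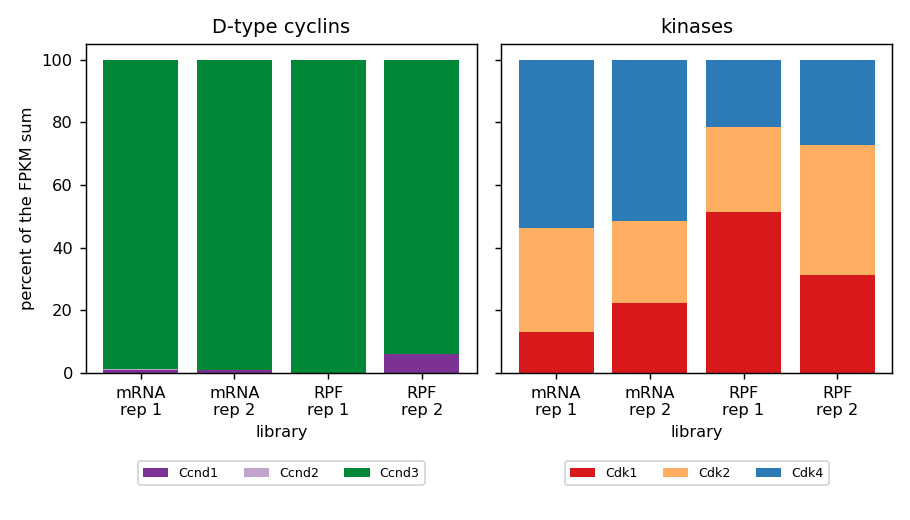
Percent of the FPKM sum held by each D-type cyclin and by each kinase, with a stacked bar per library. Ccnd3 fills at least 93.8% of each D-type bar, and the Cdk4 share is 53.9% and 51.5% in mRNA and 21.5% and 27.4% in RPF.

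The question of whether ribosome occupancy followed the message was addressed by the difference of RPF from mRNA on the log2(FPKM + 1) scale, fitted across 8327 genes with limma after each library was centred on its median. Before centring, the library medians of RPF were on average 1.5 log2 above those of mRNA, and all differences given here are relative to that shift. With the shift removed, the median difference over all genes was -0.24 on the log2 scale, with quartiles of -1.0 and 0.55. To pass, a gene needed an adjusted p below 0.05 together with a difference of 1 log2 unit or more in size. RPF was below mRNA for 8.60% of the 8327 genes and above it for 10.3%.

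Of the 8 members with at least 1 FPKM on average in both assays, 3 passed with RPF below mRNA and 0 with RPF above it. Ccnd1 and Ccnd2 were not tested. The median difference of the 8 members was -0.95 on the log2 scale. These 3 were the B-type cyclin Ccnb2, the D-type cyclin Ccnd3 and its kinase Cdk4. With the filter raised to a mean of 5 FPKM, which all 8 met, 4 members passed below, Ccne1 being added. Of all 5083 genes then tested, 722 passed below and 654 above.

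Ccnb2 had a difference of -1.81 on the log2 scale (SE 0.21, limma adjusted p = 0.00506). Cdk4 had -1.59 (SE 0.19, limma adjusted p = 0.00627), and Ccnd3 had -1.53 (SE 0.25, limma adjusted p = 0.0149). The Ccnd3 difference carries the limit of its repeated windows given above. Without mRNA replicate 1, Cdk4 (adjusted p = 0.0535) and Ccnd3 (adjusted p = 0.0807) no longer passed, and Ccnd3 (adjusted p = 0.104) also did not pass without mRNA replicate 2.

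The other 5 did not pass. Ccne1 had the lowest difference of the members, -2.36 on the log2 scale (SE 0.62, limma adjusted p = 0.0518), which rests on about 2 and 6 footprints. Ccnb1 had -0.37 (95% interval -1.19 to 0.46) and Cdk2 had -0.30 (-0.95 to 0.35). Ccna2 had 0.16 (-0.35 to 0.66), and Cdk1 had 0.71 (-0.30 to 1.73). With each library left out in turn, the difference of Cdk1 ran from 0.25 (without RPF replicate 1) to 1.11 (without RPF replicate 2).

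**Figure D3:**
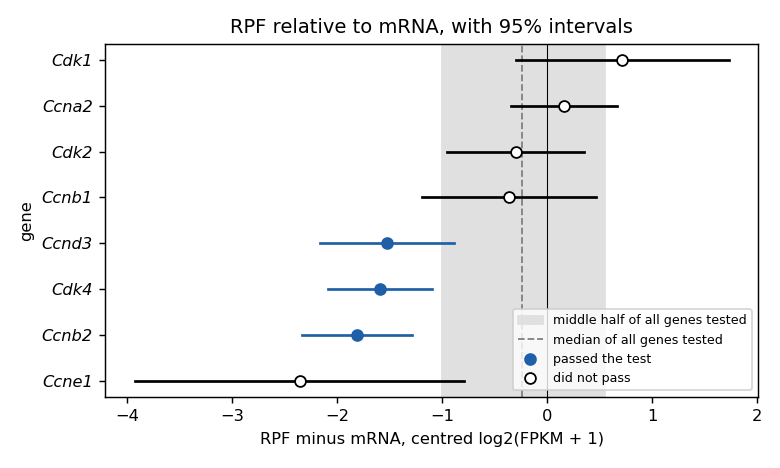
Centred difference of RPF from mRNA (log2) for the 8 members tested, with 95% intervals, beside the median (dashed) and the span between quartiles (grey) of all genes tested. Ccnb2, Ccnd3 and Cdk4 pass with RPF below mRNA, and the interval of Cdk1 spans 0.

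**Figure D4:**
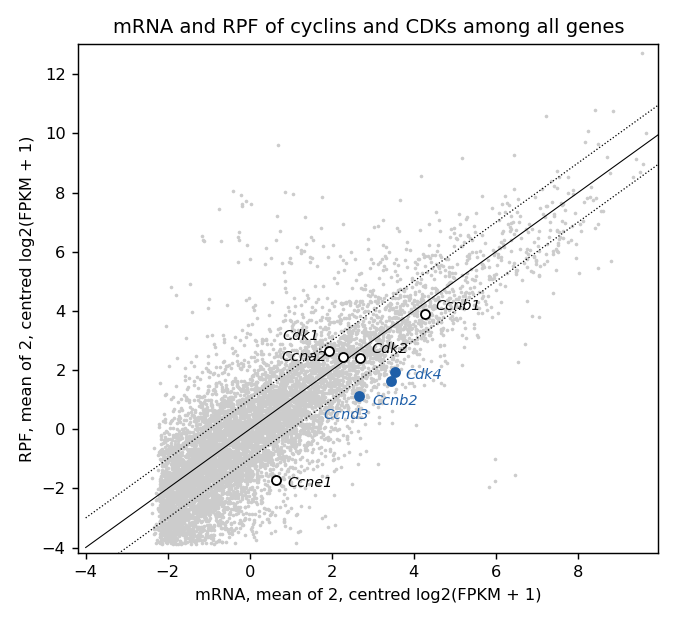
Mean centred log2(FPKM + 1) of RPF against mRNA for all genes tested, with the 8 members named. Dotted lines mark a log2 difference of 1 either side of equality, and the 3 members that passed are filled.

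Partners within the set were compared as ratios of FPKM within a library. With 2 libraries an assay the two-sided exact permutation test cannot go below p = 0.33, so none of the 7 ratios compared could pass. The ratio of Ccnb1 to Ccnb2 was 1.29 and 2.45 in mRNA and 3.76 and 6.30 in RPF, and the ratio of Cdk1 to Cdk4 was 0.243 and 0.436 in mRNA and 2.39 and 1.143 in RPF. Neither ratio overlapped between assays (exact permutation p = 0.33 for each). The ratio of Cdk4 to Ccnd3 overlapped, at 1.97 and 1.71 in mRNA and 1.38 and 2.23 in RPF (exact permutation p = 1). The ratio of Ccnb1 to Cdk1 was 5.08 and 5.15 in mRNA and 1.52 and 3.70 in RPF, and did not overlap. The ratios of Cdk2 to Cdk4 and of Cdk2 to Ccne1 did not overlap either, and that of Ccnb1 to Ccna2 did. How often other pairs of genes fail to overlap was not tested.

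Of the 8 members tested, 4 had more mRNA in replicate 2 than in replicate 1, relative to the median gene. The gap was 0.81 log2 for Ccnb1, 0.77 for Cdk1 and 0.69 for Ccne1, and 10.4%, 11.6% and 14.9% of genes were at least as far apart. Of the 14 mitotic kinase and checkpoint genes, 11 were higher in mRNA replicate 2, as were 8 of 10 retinoblastoma and E2F genes. So were 1 of 6 trophectoderm markers and 1 of 4 inner cell mass markers, against 50% of all genes. In the other regulator lists it was 6 of 14 other cyclins, 6 of 11 other CDKs and 3 of 5 inhibitors. It was also 5 of 8 activators and subunits, 11 of 22 ubiquitin ligase genes and 3 of 7 MuvB and B-MYB genes. In RPF, 5 of 14 mitotic kinase and checkpoint genes and 2 of 10 retinoblastoma and E2F genes were higher in replicate 2. The part of these replicate differences in the results was not tested.

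Around the set, 8 lists of cell cycle regulators held 108 genes, of which 87 were tested. Of these, 8 passed with RPF above mRNA and 8 with RPF below it, against 10.3% and 8.60% of all 8327 genes. Full in place of effective length was an alternative chosen after seeing the data that bears most on short coding sequences. It left 85 regulators tested, with 6 above and 10 below, against 692 and 768 of all 7297 genes then tested. Under it, Anapc11, Arpp19 and Lin9 lost their calls, Ccni and Bora were not tested, and Ccng1, Cdk16, Cks1b, Cks2 and Ube2c passed below, of which Ube2c was named after its values were seen. Of 12 other cyclins tested, 0 passed above and 2 below. These were Ccni (-3.48 log2, limma adjusted p = 0.0361) and Ccnt2, a partner of Cdk9 in transcription elongation (-1.50, limma adjusted p = 0.0252). Ccni rests on RPF of 0 and 2.21 FPKM. Ccna1, Ccnb3 and Ccno were listed at 0 in all 4 libraries.

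Of 11 other CDKs tested, Cdk9, the elongation kinase, passed above (2.22 log2, limma adjusted p = 0.0247), with mRNA of 1.33 and 3.59 FPKM and RPF of 49.0 and 36.0 FPKM, and 0 passed below. Cdk7, which activates other CDKs, had 1.18 and did not pass (limma adjusted p = 0.0776). Of 4 inhibitors tested, 1 passed, Cdkn3, a phosphatase of CDKs, with RPF below mRNA (-2.59 log2, limma adjusted p = 0.0150). Cdkn1a (p21) did not pass, at 1.21 log2 (limma adjusted p = 0.0806). Cdkn2a and Cdkn2b were listed at 0 in all 4 libraries.

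Of 8 activators and subunits tested, Cdc25a, a phosphatase that activates CDKs, passed above (1.83 log2, limma adjusted p = 0.0345). Cks1b and Cks2, small subunits of the kinase complex, did not pass, at -0.36 and -0.47. Their coding sequences are 240 bases each, and with full length they fell to -1.93 and -1.94 and passed (limma adjusted p = 0.00155 and 0.00188). Wee2 was listed at 0 in all 4 libraries. Of 9 retinoblastoma and E2F genes tested, 0 passed in either direction, and their median difference was -1.27. The lowest, E2f5 (-2.30) and E2f6 (-2.11), rest on RPF of 0 and 2.56 FPKM and of 3.04 and 0 FPKM. E2f1 (RPF 5.87 and 0 FPKM) and E2f3 (0 and 12.8 FPKM), named after their values were seen, also had a Ribo-seq library at 0. The median therefore includes genes at the depth limit.

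Of 22 ubiquitin ligase genes tested, 3 passed above and 2 below. Ube2s, which extends ubiquitin chains for the anaphase-promoting complex, had 2.65 log2 (limma adjusted p = 0.00229) and Cdc26, a subunit of that complex, had 3.50 (limma adjusted p = 0.00171), or 1.81 with full length, while the subunit Anapc5 had -3.47 (limma adjusted p = 0.00318). Anapc11 (1.90, or 0.20 and not passing with full length) and Cdc16 (-1.28), the others that passed, were named after their values were seen. Of 14 mitotic kinase and checkpoint genes, Ensa (2.04) and Arpp19 (1.46), both inhibitors of the phosphatase that opposes Cdk1, passed above, with 1.18 and 0.80 with full length, where Arpp19 did not pass. Bora (-1.90) and Chek2 (-1.71) passed below. Of 7 MuvB and B-MYB genes, Rbbp4 (1.31) passed above and Lin9 (-1.33) below. Lin9 did not pass with full length, at -1.26 (limma adjusted p = 0.0500002).

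**Figure D5:**
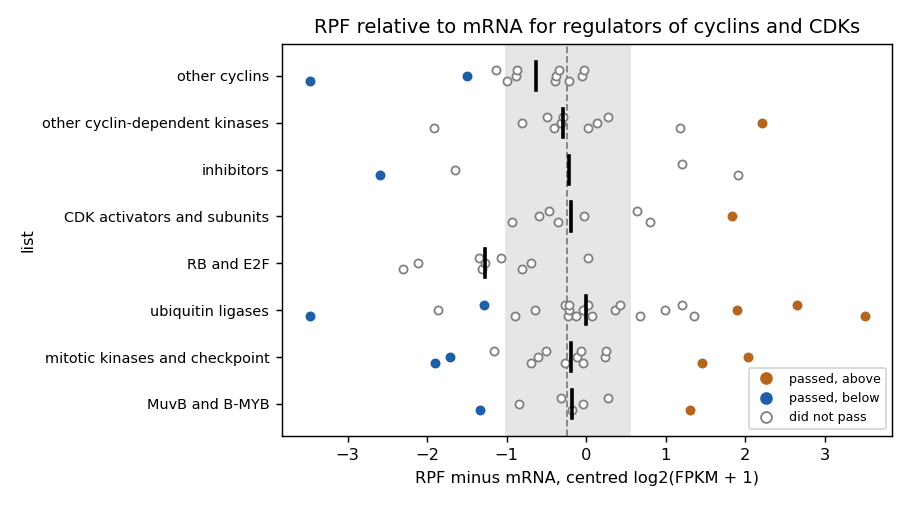
Centred difference of RPF from mRNA (log2) for every tested gene of the 8 regulator lists, a row per list, with a bar at each list's median, and the median (dashed) and the span between quartiles (grey) of all genes. Genes that passed are filled, and they run from -3.48 for Ccni to 3.50 for Cdc26.

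The gene most like each member was found as the smallest Euclidean distance over the 4 centred log2 values among 8326 genes. It was Rbm39 for Ccna2 (distance 0.054), Trappc4 for Ccnd3 (0.14), Nsmce1 for Cdk4 (0.24), Mtx2 for Ccnb2 (0.31) and Tpi1 for Ccnb1 (0.42). Within the set, Ccnb2 and Cdk4 were each other's nearest member, at a distance of 0.59, and Ccna2 and Cdk2 were so at 0.79.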

How the data were processed

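Blastocyst RNA-seq and Ribo-seq, 2 libraries each, were analysed. The authors deposited FPKM per gene for each library. Per the labels and the study's methods, reads were trimmed (Trim Galore 0.4.2, cutadapt 1.14), rRNA reads of Ribo-seq were removed (Bowtie2 2.2.2), the rest were mapped to the mm9 transcriptome (STAR 2.5.3a, up to 20 places a read), and Cufflinks 2.2.1 gave FPKM over transcripts for RNA-seq and over coding sequences for Ribo-seq. Libraries of other stages were not analysed here.

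A repeated symbol took its highest FPKM. Fragment totals were recovered from steps in low values, using an effective length (fragments of 200 bases, SD 80). Values within 0.1 of a whole fragment made up 61.3% to 62.4% of those checked in RNA-seq and 85.4% to 85.8% in Ribo-seq, against 20% by chance, so no count test was run. Genes with a mean of at least 1 FPKM in both assays (8327) were fitted with limma 3.58.1 (R 4.3.3, mean-variance trend) on log2(FPKM + 1), centred per library, with Benjamini-Hochberg adjustment over all genes. Other steps used Python 3.11.15, numpy 2.4.6, pandas 2.3.3 and scipy 1.17.1. The depth estimate and the fit were tested on simulated data.

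Members and lists were chosen with earlier results of these data known. All members were described. From each list, up to 2 genes each with the highest RPF, the highest and the lowest difference could be named, with genes at 0 throughout, and the nearest gene for 5 members. Alternatives were the pseudocount, filters, centring, quantile normalization, the trend, summed symbols, a replicate block and each library left out. Added after seeing the data was full in place of effective length, of transcripts for mRNA and of coding sequences for RPF. Sequences came from GENCODE vM1 on NCBIM37.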

Additional observations from a re-analysis of the deposited data

How the results depend on the processing

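Without centring, 4144 genes passed with RPF above mRNA and 66 below, among them 4 and 0 members and 44 and 1 regulators, and Ccnb1 (1.135) and Cdk2 (1.20) turned positive, since the difference of 1.5 log2 between the library medians of the assays was then kept. With no filter on low values, 1353 of 13402 genes passed above and 3165 below, as did 12 and 15 of 101 regulators. With no mean-variance trend, 554 of 8327 genes passed above and 442 below. Quantile normalization moved Ccna2 to -0.068. Leaving out each library in turn gave 428 to 1230 genes above and 145 to 1634 below, 0 to 1 members above and 1 to 4 below, and 5 to 14 regulators above and 1 to 18 below. Over the same fits the difference of Ccnb1 ran from -0.78 to 0.048, and it turned positive without mRNA replicate 2. An assay left with 1 library is assumed to vary like the other. Ccne1 passed with a mean of at least 5 FPKM (limma adjusted p = 0.0396), quantile normalization (0.0348) and full length (0.0438). It did not pass with a pseudocount of 0.1 (0.0531), no filter (0.0642), no trend (0.0870), summed symbols (0.0523) or no centring (0.285). With each library left out in turn, the difference of Ccne1 ran from -3.16 to -1.63 log2. Ccnb2 lost its call only without centring among the 13 alternatives run. The cause of these changes was not tested except as stated.

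The libraries share only a replicate number. With the replicate number as a block, 5 of 87 regulators and 618 of all 8327 genes passed below, and Ccne1 passed (limma adjusted p = 0.0236). The deviations of same-numbered libraries correlated at 0.0099 over 8327 genes. The Ribo-seq depth makes 1 footprint of a member worth 1.73 to 3.11 FPKM, which limits Ccnd1, Ccnd2 and Ccne1.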
